A study of Mus musculus with 12 samples.

Results

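The ribosomal protein pseudogenes are 224 of the 30630 features listed for the 12 tumors. They were taken as every listed mouse Ensembl identifier that GENCODE M21, a mouse gene annotation on GRCm38, names with a symbol that starts with Rpl or Rps and contains "-ps". The annotation holds 300 such genes in all. Each was set beside its parent, the gene whose symbol comes before "-ps", which gave 56 parents: 34 encode proteins of the large ribosomal subunit (133 pseudogenes) and 22 encode proteins of the small subunit (91 pseudogenes).

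CT-26 is a mouse colon carcinoma cell line, and its cells had been injected with Matrigel under the skin of the right flank of male BALB/c mice, which were 4 to 6 weeks old when purchased and had been fed for a period of adaptation before the injection. RNA-Seq was performed on 6 tumors of the control group and 6 tumors of the swimming group, out of 10 mice per group. Mice of the swimming group swam 2 times per day on 6 days per week, for up to 30 min each time, and the experiment ended after 3 weeks, while control mice did not swim. The values are FPKM, that is, fragments per kilobase of gene length and per sequencing depth, so that levels of different genes are on a per-length scale. Each tumor is a mixture of the injected line and of cells of the host, and in such bulk samples fewer cells of a type and less RNA per cell cannot be told apart.

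A processed pseudogene arises when a messenger RNA is copied back into DNA and inserted elsewhere in the genome, so the copy lacks the introns of its parent and usually its promoter. Ribosomal protein genes are expressed strongly in nearly every cell and are the largest source of such copies in mammals. Young copies differ from the parent messenger RNA at few bases, and a short read from the parent can then match the copy as well as the parent itself. Levels of these copies in RNA-Seq tables are therefore usually read together with the parent.

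The pseudogenes resembled the coding transcripts of their parents closely. Of the 224, 212 are annotated as processed pseudogenes, 7 as transcribed processed pseudogenes and 5 as protein coding (Rpl10-ps3, Rpl36a-ps1, Rpl9-ps1, Rpl9-ps6 and Rps12-ps3), and 221 have 1 exon, whereas the parent transcripts they were aligned to have 3 to 10 exons. The median identity to the parent was 97.9%, with a lowest value of 77.5%, and 63 pseudogenes were at least 99% identical over at least 95% of their length. The best-scoring alignment was on the reverse strand for 3 of them (Rpl13-ps1, Rpl18-ps1 and Rps7-ps2). They lie on 20 chromosomes, 69 inside an intron of another gene, 9 with an exon overlap and 146 with neither.

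Stretches of sequence from 3 pseudogenes, each beside the same stretch of the parent coding sequence, show how little separates pseudogenes of high level from their parents. Sequences are from the GENCODE M21 transcripts, and capitals mark the bases that differ within each pair. Positions are counted from 1 at the A of the parent start codon, with the parent base first. Rps27a-ps2 (ENSMUSG00000058838, chr9:83409660-83410126, plus strand, GRCm38) is the pseudogene with the largest difference between the swimming and control groups, and it differs from Rps27a (ENSMUSG00000020460, chr11:29545846-29548109, minus strand) at A375G alone. Positions 300 to 450 are shown, at chr9:83409959-83410109.
Rps27a-ps2: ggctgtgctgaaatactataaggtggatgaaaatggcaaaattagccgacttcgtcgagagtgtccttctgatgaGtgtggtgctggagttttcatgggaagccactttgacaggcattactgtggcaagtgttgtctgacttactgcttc
Rps27a: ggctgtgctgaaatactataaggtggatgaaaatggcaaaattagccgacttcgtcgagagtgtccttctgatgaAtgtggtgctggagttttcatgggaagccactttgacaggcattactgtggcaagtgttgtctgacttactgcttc

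Rps10-ps2 (ENSMUSG00000099764, chr16:20822145-20822640, minus strand) is the pseudogene that followed its parent Rps10 (ENSMUSG00000052146, chr17:27630418-27636669, minus strand) most closely across tumors. All 5 of its substitutions, T393C, T408C, C437G, A438G and G473A, are between positions 383 and 483, which lie at chr16:20822158-20822258.
Rps10-ps2: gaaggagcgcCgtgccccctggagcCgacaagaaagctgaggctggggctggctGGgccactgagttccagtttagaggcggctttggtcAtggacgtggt
Rps10: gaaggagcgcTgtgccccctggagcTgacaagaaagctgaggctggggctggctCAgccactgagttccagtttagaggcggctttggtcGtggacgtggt

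Rpl35a-ps3 (ENSMUSG00000067575, chr17:29136972-29137304, minus strand) had a far higher level than Rpl35a (ENSMUSG00000060636, chr16:33056453-33060189, plus strand). It differs from Rpl35a at G156A alone, and Rpl35a-ps2, Rpl35a-ps4 and Rpl35a-ps6 carry the same base and are identical to it over all 333 bases. Positions 126 to 186, at chr17:29137119-29137179, are shown.
Rpl35a-ps3: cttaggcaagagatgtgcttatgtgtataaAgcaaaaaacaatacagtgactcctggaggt
Rpl35a: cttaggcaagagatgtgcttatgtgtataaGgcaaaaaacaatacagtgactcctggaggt

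The deposited values of the whole series summed to between 380139 and 407109 FPKM per tumor. Absolute depth is unknown from such values. Relative depth, taken from the steps between low values, was lowest in control 2 (0.694 of control 1) and 0.872 to 0.971 in the swimming tumors, so low values are least precise in control 2. Of 10 colon epithelium markers, 4 reached a mean of 1 FPKM, and Cldn7, Vil1, Cdx2 and Epcam were below 0.1 FPKM. The 10 together still summed to 136 to 325 FPKM in control tumors and 122 to 170 FPKM in swimming tumors. All 6 of 6 mesenchymal and carcinoma markers reached 1 FPKM, with sums of 563 to 827 FPKM in control and 634 to 796 FPKM in swimming tumors. Summed skeletal muscle markers ranged from 3.31 to 217 FPKM in control tumors and from 2.50 to 303 FPKM in swimming tumors, and the part of such admixed tissue in the results was not tested.

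First, the levels of the pseudogenes were examined. The median of their mean FPKM over 12 tumors was 0.906, against 441 for the parents and 0.367 for all listed features. The range was wide: 110 pseudogenes had a mean of at least 1 FPKM, 71 of at least 10 FPKM and 37 of at least 100 FPKM, while 70 were below 0.1 FPKM. The 10 highest held 52.4% of the summed level. Together the pseudogenes summed to 13893 to 15397 FPKM in control tumors and 12386 to 15774 FPKM in swimming tumors, which was 3.26% to 3.95% of all FPKM in a tumor.

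The highest was Rps2-ps10 (ENSMUSG00000091957, chr18:61259008-61259972, minus strand), a copy of Rps2, a small subunit protein gene. Its mean was 1824 FPKM, against 59.0 FPKM for Rps2 itself, and it varied little, from 1727 to 1982 FPKM in control tumors and from 1754 to 1965 FPKM in swimming tumors. It lies in an intron of Pde6a on the opposite strand, a phosphodiesterase gene of rod photoreceptors, whose own mean was 0.00353 FPKM. The second was Rps12-ps3 (ENSMUSG00000067038, chr19:59322290-59322783, plus strand), which is identical over its length to a transcript of Rps12, another small subunit protein gene. Its mean was 1112 FPKM, against 322 FPKM for Rps12.

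The next were Rpl3-ps1 at 805 FPKM (parent Rpl3 297 FPKM), Rps10-ps2 at 792 FPKM (Rps10 435 FPKM), Rpl17-ps10 at 600.3 FPKM and Rpl17-ps3 at 551 FPKM (Rpl17 521 FPKM). The other members of the highest 10 were Rpl35a-ps3 at 553 FPKM, Rpl35a-ps6 at 515 FPKM and Rpl35a-ps2 at 425 FPKM, against 15.6 FPKM for Rpl35a, and Rps2-ps13 at 438 FPKM. Rpl3 encodes a protein near the peptidyl transferase center of the large subunit, and Rpl17 and Rpl35a encode other proteins of that subunit. In all, 20 of the 224 pseudogenes had a higher mean than their own parent.

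**Figure D1:**
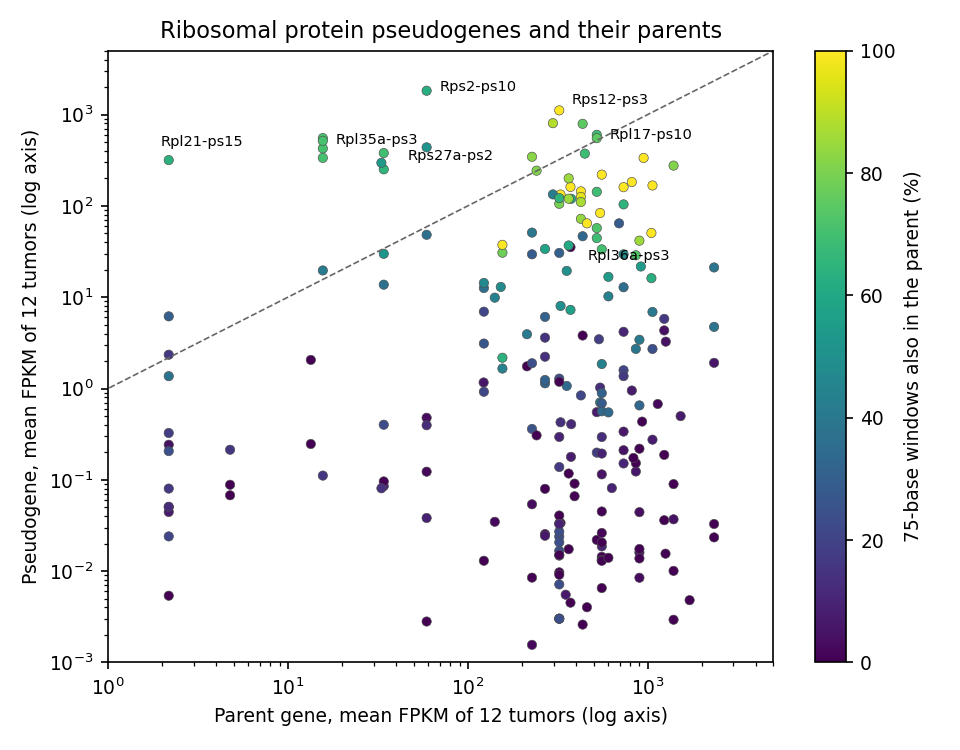
Mean FPKM over 12 tumors of each of the 224 pseudogenes (vertical, log axis) against that of its parent gene (horizontal, log axis), colored by the share of its 75-base windows that is also in the parent. The dashed line marks equal levels: 20 pseudogenes lie above it, among them Rps2-ps10 at 1824 FPKM, and the pseudogenes with no shared window, in dark color, lie mostly at the bottom.

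The level of a pseudogene was then set beside how much of its sequence a read could share. For this, every stretch of 75 consecutive bases of a pseudogene was searched for in all annotated transcripts, on both strands, since the read length is not given in the sources used here. At least 1 such window was also present in the parent for 176 pseudogenes, and all windows were present in the parent for 13. No window was found in the parent for 48, and 33 had no window that was theirs alone among annotated transcripts.

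Pseudogenes that share more windows with the parent had higher levels. The median of the mean FPKM was 0.0281 for the 48 with no shared window and 0.151 for the 81 with up to 25% of windows shared. It was 6.53 for the 40 with over 25% to 50% shared and 121 for the 28 with over 50% to 75% shared. For the 14 with over 75% but not all windows shared it was 163, and for the 13 with all windows shared it was 160.3. Spearman's rho between shared windows and mean FPKM was 0.82 across the 224 genes, and that between the level of the parent and that of the pseudogene was -0.06. These are descriptions across genes, which are not independent replicates, since pseudogenes of 1 parent share their sequence.

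Among the 48 with no window in the parent, 35 were below 0.1 FPKM. The highest of them was Rpl36a-ps3 (ENSMUSG00000071141, chr6:136488807-136489127, plus strand) at 35.3 FPKM, which is only 87.5% identical to Rpl36a. It shared 69.6% of its windows with Rpl36al, a paralog of Rpl36a with a mean of 206 FPKM. The next were Rps10-ps4 (ENSMUSG00000083988, chr5:147100562-147101053, minus strand) at 3.80 FPKM and Rpl26-ps6 (ENSMUSG00000111864, chr9:43217122-43217555, plus strand) at 2.06 FPKM, neither of which shared a window with any annotated transcript. The mean of Polr1d, an RNA polymerase subunit gene in whose intron Rps10-ps4 lies on the opposite strand, was 34.4 FPKM.

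The 5 named members with every window in the parent were Rps12-ps3, Rps16-ps2 (ENSMUSG00000060419) at 335 FPKM, Rpl31-ps8 (ENSMUSG00000067870) at 220 FPKM, Rpl38-ps2 (ENSMUSG00000080921) at 183 FPKM and Rps6-ps4 (ENSMUSG00000081406) at 167 FPKM. Their parents were at 322, 949, 556, 817 and 1063 FPKM in the same order. The level was below that of the parent in 4 of these 5 and above it in Rps12-ps3. Over the 13 with every window shared, the median level was 24.0% of the parent level.

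**Figure D2:**
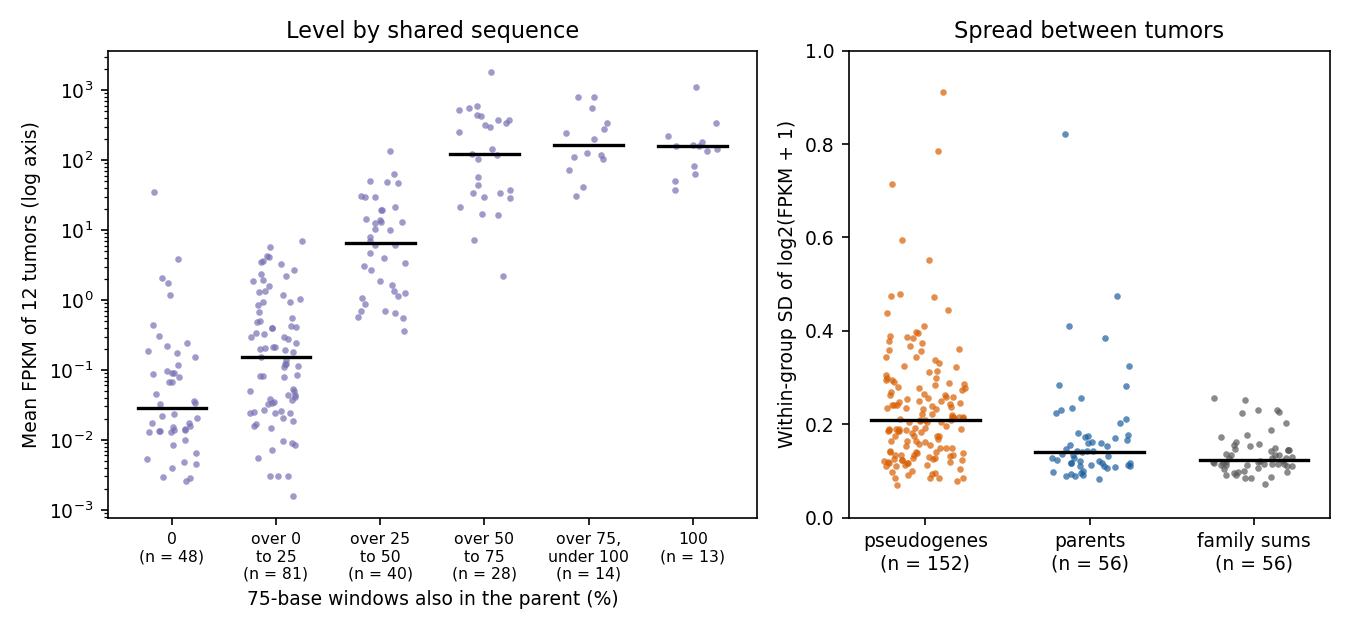
Left, mean FPKM over 12 tumors (log axis) of the 224 pseudogenes by the share of their 75-base windows also in the parent, each point a pseudogene and each bar the median, which rises from 0.0281 to 160.3 FPKM. Right, within-group standard deviation of log2(FPKM + 1) between tumors for the 152 tested pseudogenes, their 56 parents and the 56 length-weighted family sums, with medians of 0.21, 0.14 and 0.12.

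By family, levels were uneven. Of the 56 families, 24 had a pseudogene of at least 100 FPKM, 21 had their highest pseudogene between 1 and 100 FPKM, and 11 families with 14 pseudogenes had none at 1 FPKM. Rps12 had the most pseudogenes, 23, of which 6 reached 1 FPKM and 8 passed the filter for testing, and the lowest, Rps12-ps6, was at 0.00301 FPKM. Rpl31 had 18, with only Rpl31-ps8 and 2 others at 1 FPKM or more, and Rpl21 had 13, with 4 at 1 FPKM or more.

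Rpl21 itself was at 2.18 FPKM, whereas Rpl21-ps15 was at 317 FPKM and between 94.8 and 263 times the parent value in the 12 tumors. A like order was found for Rpl30 (34.1 FPKM, with Rpl30-ps9 at 379 FPKM) and Rps18 (33.1 FPKM, with Rps18-ps3 at 296 FPKM). In the other direction, Rpl32 was at 1711 FPKM and its pseudogene Rpl32-ps at 0.00481 FPKM, and Rps29 at 1257 FPKM and Rps29-ps at 0.0155 FPKM, neither pseudogene sharing a window with its parent. Rplp0, which encodes a protein of the ribosomal stalk, was at 1138 FPKM and Rplp0-ps1 at 0.676 FPKM. Of the families with many pseudogenes of middle level, the 8 pseudogenes of Rpsa, a small subunit protein gene also known as a laminin receptor gene, ranged from 0.151 to 104 FPKM, and the 9 of Rps19 from 0.0244 to 33.7 FPKM.

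To see how much of a family is placed on these pseudogenes, the parent and its "-ps" pseudogenes were summed with each FPKM value weighted by gene length. Features that share windows with them under other symbols are left out of these sums. Among those features are Gm12191 at 3250 FPKM, for Rpl30, and Gm10260 at 2062 FPKM, for Rps18. The shares below therefore cover only genes with a "-ps" symbol and their parents. Weighted by all annotated exonic bases of the parent, pseudogenes held 13.0% to 14.8% of the summed families in control tumors and 13.3% to 15.3% in swimming tumors. Weighted instead by the length of the aligned parent transcript, an alternative added after the values were seen, the shares were 24.2% to 27.0% and 24.5% to 27.5%. The groups overlapped under both weightings.

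With the transcript length, 10 families had over 50% of their value on pseudogenes. These were Rpl21 (median 98.8%), Rpl35a (98.7%), Rps2 (97.6%), Rpl30 (92.2%), Rps18, Rps12 (80.2%), Rpl3 (74.2%), Rps10 (65.5%), Rpl17 (65.2%) and Rpl7a (64.1%). In 14 families the share was under 1%. The share was steady between tumors in most families and wide in Rpl17, from 31.3% to 87.0%, and in Rps27a, from 9.47% to 76.3%.

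**Figure D3:**
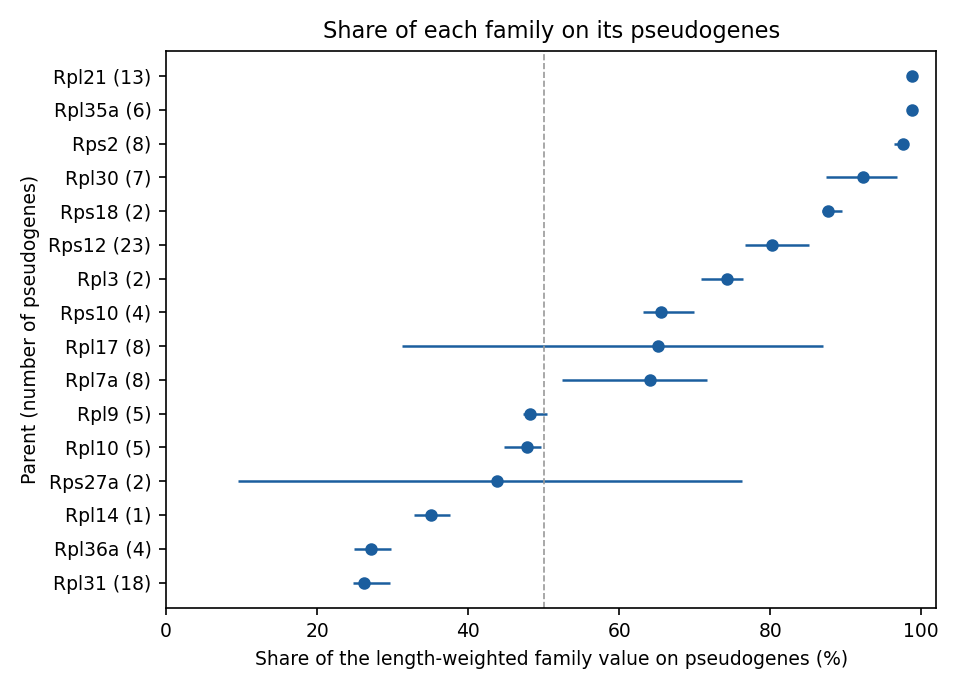
Share of the length-weighted family value (percent, transcript-length weighting) on pseudogenes in the 16 families of highest share, with the number of pseudogenes of each parent in brackets. Points are medians of 12 tumors and lines run from the lowest to the highest tumor. The lines of Rpl17 (31.3% to 87.0%) and Rps27a (9.47% to 76.3%) are the longest.

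Next, the spread between tumors was examined. The median within-group standard deviation of log2(FPKM + 1) was 0.21 over the 152 pseudogenes that passed the filter of at least 0.1 FPKM in at least 6 tumors, 0.14 over the 56 parents and 0.15 over all 19018 features tested. Of the 152, 27 (17.8%) were above the 90th percentile of all features. After summing each family with transcript-length weighting, the median was 0.12 and 0 of 56 families were above that percentile, against 5 of the 56 parents (8.93%). The sum varied less than the family's most variable pseudogene in 47 of 51 families with a tested pseudogene, and less than the parent in 30 of 56. The first count compares the sum with the largest SD among the pseudogenes, and only 10 of 56 families had over 50% on pseudogenes. It was therefore largely given in advance and does not bear on read sharing.

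Wide spread was also found at higher levels, since 13 of the 71 pseudogenes of at least 10 FPKM (18.3%) were above the same percentile. Of all features of at least 10 FPKM, 7.71% were above it. The 5 of largest spread were Rps27a-ps2 (SD 0.91), Rpl17-ps10 (0.78), Rpl30-ps8 (0.71), Rps13-ps1 (0.59) and Rps13-ps2 (0.55), which lie between the 97.6% and 99.5% points of the order of all features. Rps2-ps10, in contrast, had an SD of 0.07, at the 5.16% point of that order.

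Rpl17-ps10 (ENSMUSG00000081895, chr7:72648757-72649311, minus strand) differs from Rpl17 (ENSMUSG00000062328, chr18:74998558-75003381, plus strand) at G404A, C417T, T491C and C547A. Its lowest, median and highest values were 259, 436 and 962 FPKM in control tumors and 214, 693 and 940 FPKM in swimming tumors. Those of Rpl17 were 195, 658 and 778 FPKM and 208, 438 and 1068 FPKM. The 2 genes moved in opposite directions from tumor to tumor: the highest Rpl17 value and the lowest Rpl17-ps10 value were both in swimming 2, and the lowest Rpl17 value and the highest Rpl17-ps10 value were both in control 1.

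The ratio of Rpl17-ps10 to Rpl17 ranged from 0.200 to 4.93 over the 12 tumors, whereas the summed Rpl17 family, with transcript-length weighting, ranged from 1276 to 1654 FPKM. The standard deviation was 0.78 for Rpl17-ps10, 0.82 for Rpl17 and 0.10 for the sum. With exonic-length weighting the SD of the sum was 0.19.

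Rps27a encodes ubiquitin fused to a small subunit protein. The value of Rps27a-ps2 ranged from 0.141 to 4.39 times that of Rps27a, a 31.0-fold range, the widest of the pairs described here. The standard deviation was 0.91 for Rps27a-ps2, 0.41 for Rps27a and 0.19 for the family sum under either weighting. Gm8430, a feature that holds 62.8% of the windows of Rps27a-ps2, was between 26.0 and 69.5 FPKM and was highest in swimming 4 and control 2, the 2 tumors in which Rps27a-ps2 was also highest.

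Rps13-ps1 (ENSMUSG00000066362, chr8:87047689-87048226, plus strand) and Rps13-ps2 (ENSMUSG00000069972, chr7:88530446-88530898, minus strand) are copies of Rps13, a small subunit protein gene, on different chromosomes. Both stood apart in swimming 5, at 69.6 and 90.4 FPKM, against 16.9 to 40.5 FPKM and 23.1 to 49.1 FPKM in the other 11 tumors. Rps13 had its lowest value, 131.5 FPKM, in the same tumor, with 147 to 172 FPKM elsewhere. This was not particular to Rps13, since many other parents, such as Rpl36, Rpl32 and Rps15, were also lowest in swimming 5. The sum of the cytosolic ribosomal protein genes was lowest there as well, at 45529 FPKM. The Rps13 sum in swimming 5 was within the range of the other tumors with exonic-length weighting and above it with transcript-length weighting.

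Rpl30-ps8 (ENSMUSG00000062582, chr12:99047230-99047574, plus strand) ranged from 11.4 to 54.0 FPKM, and its parent Rpl30, a large subunit protein gene, from 14.1 to 55.2 FPKM. Its lowest value was in control 5, where Rpl30 was highest, and Rpl30 was lowest in control 6, where Rpl30-ps8 was at 49.9 FPKM. The SD of the sum with transcript-length weighting was 0.16, against 0.71 for Rpl30-ps8 and 0.48 for Rpl30. Most of that sum lies on Rpl30-ps9 (379 FPKM, SD 0.18) and Rpl30-ps10 (251 FPKM, SD 0.16). Its SD therefore does not bear on whether Rpl30-ps8 and Rpl30 offset each other.

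**Figure D4:**
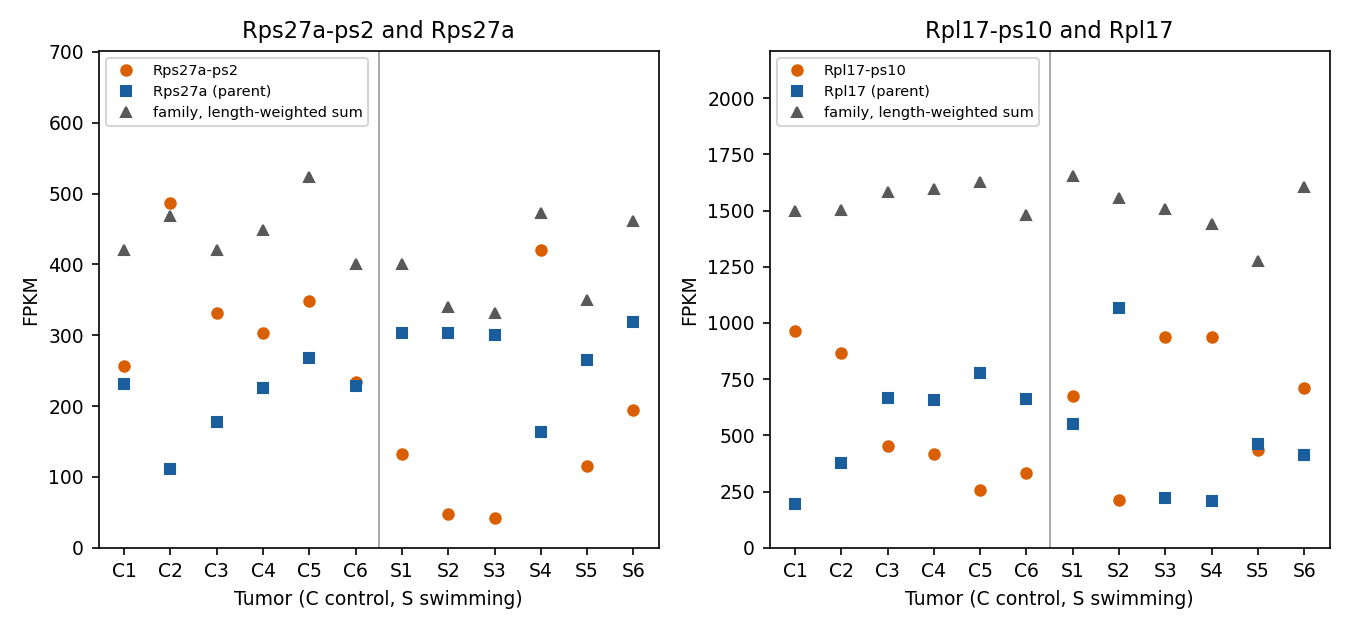
FPKM in each of the 6 control (C1 to C6) and 6 swimming (S1 to S6) tumors for Rps27a-ps2 and Rps27a (left) and for Rpl17-ps10 and Rpl17 (right), with the family sum expressed per length of the parent transcript, which can be below the value of a shorter pseudogene. Pseudogene and parent move in opposite directions, while the Rpl17 sum stays between 1276 and 1654 FPKM.

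Pseudogene and parent were then correlated across the 12 tumors, on log2(FPKM + 1), for the 6 pseudogenes of highest mean with distinct parents and for Rps27a-ps2, which was added after its values were seen. Two-sided tests used 100000 permutations, with Benjamini-Hochberg adjustment over the 7 pairs. Both genes of a pair share their library, and reads may be shared as well. Rps10-ps2 and Rps10 rose and fell together (r = 0.96, permutation p = 7e-05, adjusted 0.00028; rho = 0.90, permutation p = 0.00024). Without swimming 4 and swimming 5, the tumors farthest from the median, r was 0.96, and it was 0.97 within control and 0.98 within swimming tumors.

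Rpl17-ps10 and Rpl17 were opposed (r = -0.91, permutation p = 8e-05, adjusted 0.00028; rho = -0.94, permutation p = 3e-05). Without control 1 and swimming 4, r was -0.90, and it was -0.91 in each group. Rps27a-ps2 and Rps27a were opposed as well (r = -0.71, permutation p = 0.0114, adjusted 0.0266; rho = -0.77, permutation p = 0.00493), with r of -0.64 without control 2 and swimming 4, -0.75 within control and -0.70 within swimming tumors.

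The other 4 pairs did not pass after adjustment. For Rpl3-ps1, r was 0.59 (permutation p = 0.048, adjusted 0.084; rho = 0.35, permutation p = 0.266), and this rested on control 5 and swimming 5, without which r was 0.19. Within control tumors it was -0.17 and within swimming tumors 0.89. For Rpl35a-ps3, r was 0.52 (permutation p = 0.0991, adjusted 0.139; rho = 0.50, permutation p = 0.104) and 0.68 without control 5 and swimming 3, with 0.62 within control and 0.49 within swimming tumors. For Rps2-ps10, r was 0.43 (permutation p = 0.16, adjusted 0.186; rho = 0.32, permutation p = 0.308), and -0.28 without control 1 and swimming 3, with 0.52 within control and 0.26 within swimming tumors. For Rps12-ps3, r was 0.09 (permutation p = 0.775; rho = 0.20, permutation p = 0.527) and 0.08 without swimming 4 and swimming 5, with 0.24 within control and 0.34 within swimming tumors.

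Over all 152 tested pseudogenes, r with the parent ranged from -0.91 to 0.96 with a median of 0.39. It was below -0.5 for 8 pseudogenes and above 0.5 for 52. Those below -0.5 included Rps13-ps2 (-0.80), Rpl7a-ps5 (-0.74), Rpl30-ps8 (-0.69) and Rps13-ps1 (-0.68). The median r was 0.76 over the 13 pseudogenes with all windows in the parent and 0.22 over the 13 tested pseudogenes with none. These sets also differ in level: the former had means of 37.5 to 1112 FPKM, the latter of 35.3 FPKM or less. The 3 highest of the latter, Rpl36a-ps3, Rps10-ps4 and Rpl26-ps6, had r of 0.65, 0.68 and -0.30. Whether r goes with shared windows or with level was not tested.

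The 4 Rpl35a copies with identical sequence moved together. The value of Rpl35a-ps3 was between 1.06 and 1.09 times that of Rpl35a-ps6 in every one of the 12 tumors, between 1.24 and 1.33 times that of Rpl35a-ps2, and between 1.59 and 1.71 times that of Rpl35a-ps4. These 4 share all 333 bases and lie on different chromosomes. Rps2-ps10 was 3.94 to 4.48 times Rps2-ps13 (ENSMUSG00000081684, chrX:52898588-52899469, plus strand), which is the gene it shares most windows with.

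Finally, the swimming group was compared with the control group, the question of the study's RNA-Seq. Few pseudogenes differed: 12 of the 152 tested had an unadjusted p below 0.05 in limma, 3 higher and 9 lower in swimming tumors, against 5.56% of all 19018 features tested, 3.11% higher and 2.46% lower. None passed Benjamini-Hochberg adjustment in limma (0 of 152, smallest adjusted p 0.889), as was the case for all features (0%). Swimming and control values did not separate without overlap for any pseudogene (0 of 152, against 0.147% of all features). The number called depended on single tumors: it was 25 without swimming 6, 5 without swimming 5, 6 without control 2 and 7 without control 3.

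The largest difference was that of Rps27a-ps2. Its lowest, median and highest values were 233, 318 and 487 FPKM in control tumors and 42.4, 124 and 421 FPKM in swimming tumors. In 5 of 6 swimming tumors it was below every control tumor, and in swimming 4, at 421 FPKM, it was above all controls but control 2, so the groups overlap. The mean was 327 ± 89.8 FPKM in control tumors and 159 ± 140.2 FPKM in swimming tumors (SD, n = 6 each).

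On the log2(FPKM + 1) scale Rps27a-ps2 was lower by a difference of -1.43 (SE 0.46, limma unadjusted p = 0.00878, adjusted 0.889; exact two-sided permutation p = 0.0238). It was the only pseudogene past a 2-fold change with an unadjusted p below 0.05, against 0.105% of all features, and the only one below that p in every alternative tried. Leaving out single tumors gave -1.79 to -1.14. Lca5, the gene in whose intron it lies on the opposite strand, was at 0.406 to 1.49 FPKM, far below it.

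Rps27a itself was at 111, 227 and 268 FPKM (lowest, median, highest) in control tumors and 164, 301 and 318 FPKM in swimming tumors, with a difference of 0.43 (SE 0.21, limma unadjusted p = 0.0617). Gm8430 was lower by -0.57 (limma unadjusted p = 0.0213). For the summed family the difference was 0.14 with exonic-length weighting (limma unadjusted p = 0.178) and -0.20 with transcript-length weighting (limma unadjusted p = 0.0768), so its sign turned with the weighting. With plain addition of FPKM it was -0.32 (limma unadjusted p = 0.0313), and with Gm8430 added to the transcript-length sum it was -0.22 (limma unadjusted p = 0.0627).

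Of the 3 pseudogenes higher in swimming tumors, Rpl7a-ps5 (ENSMUSG00000071052, chr17:57838430-57839221, minus strand) was the only one above 1 FPKM. Its lowest, median and highest values were 24.6, 36.3 and 64.0 FPKM in control and 34.5, 65.0 and 72.7 FPKM in swimming tumors, and 4 of 6 swimming tumors were above every control. The difference was 0.56 (SE 0.24, limma unadjusted p = 0.0391; exact permutation p = 0.0801). Rpl7a, its large subunit parent, was lower by -0.23 (limma unadjusted p = 0.0197), and the Rpl7a sum differed by -0.04 with exonic-length weighting (limma unadjusted p = 0.476) and by 0.03 with transcript-length weighting (limma unadjusted p = 0.691). The other 2 were Rpl7a-ps10 (ENSMUSG00000101502, difference 0.16, exact permutation p = 0.00866) and Rps27-ps1 (ENSMUSG00000081429, difference 0.27, exact permutation p = 0.0433), with control means of 0.286 ± 0.0667 and 0.0601 ± 0.10 FPKM and swimming means of 0.435 ± 0.0953 and 0.287 ± 0.194 FPKM (SD, n = 6 each).

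Of the 9 lower in swimming tumors, Rpl31-ps9 (ENSMUSG00000094122), a copy of a large subunit protein gene, was at 32.3, 36.0 and 41.0 FPKM in control and 23.7, 29.4 and 42.0 FPKM in swimming tumors, with a difference of -0.25 (SE 0.11, exact permutation p = 0.0714). Rpl13-ps6 (ENSMUSG00000059776) was at 25.7, 30.3 and 34.8 FPKM and at 26.2, 26.7 and 28.3 FPKM, with a difference of -0.16 (SE 0.07, exact permutation p = 0.0758). Both groups of values overlapped in each.

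Others of the 9 were below 10 FPKM. Rpl36-ps2 (ENSMUSG00000024205) went from 5.49 ± 1.11 to 3.97 ± 1.48 FPKM, a difference of -0.42 (SE 0.19, exact permutation p = 0.0779), and Rpl21-ps10 (ENSMUSG00000105359) from 6.77 ± 0.779 to 5.57 ± 1.03 FPKM, a difference of -0.25 (SE 0.10, exact permutation p = 0.0498). Rpsa-ps12 (ENSMUSG00000080746) differed by -0.31 (SE 0.14, exact permutation p = 0.0455) and Rpl10-ps2 (ENSMUSG00000074108) by -0.18 (SE 0.08, exact permutation p = 0.0455). Rpl21-ps1 (ENSMUSG00000102606) differed by -0.32 (SE 0.10, exact permutation p = 0.0195), at a mean of 0.242 FPKM. The smallest p of the exact permutation test with 6 against 6 tumors is 0.00216. Of the 12, 5 were below 1 FPKM, where the added 1 makes a difference on this scale smaller than the change in FPKM.

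**Figure D5:**
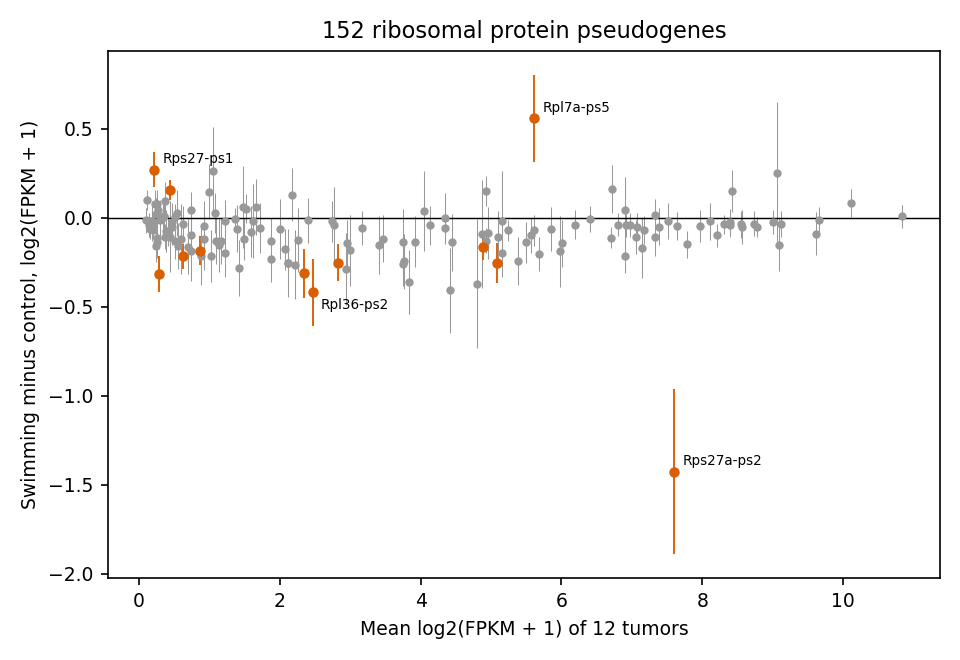
Difference between the swimming and control groups in log2(FPKM + 1), with standard errors from limma, for the 152 tested pseudogenes against their mean log2(FPKM + 1) over 12 tumors. The 12 with an unadjusted p below 0.05 are in orange, 4 of them named, and Rps27a-ps2 at -1.43 lies far from the others.

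The small differences leaned to one side. The difference was below 0 for 122 of the 152 pseudogenes (80.3%), with a median of -0.07, whereas it was below 0 for 48.3% of all features tested, with a median of 0.00. It was below 0 for 61 of the 80 cytosolic ribosomal protein genes (76.2%, median -0.05), of which 1 was higher and 2 lower at an unadjusted p below 0.05. Of 21 ribosome assembly factors, 3 were lower and 0 higher, with a median of -0.06, and of 7 ribosomal protein paralog genes 1 was lower and 0 higher, where 2.46% of all features tested were lower and 3.11% higher. These shares are descriptions: the pseudogenes share sequence with each other and with these genes, so their values are not independent. Swimming 5 had the lowest sums of all tumors, 12386 FPKM for pseudogenes and 45529 FPKM for cytosolic ribosomal protein genes. The group medians of these sums were close. They were 14783 FPKM in control and 14614 FPKM in swimming tumors for pseudogenes. For the ribosomal protein genes they were 54118.5 and 53832.6 FPKM. How far the lean rests on swimming 5 was not tested.

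None of the 10 of highest level had an unadjusted p below 0.05. Rpl17-ps10 had the widest error, a difference of 0.25 with an SE of 0.40. Rps2-ps10 averaged 1819 ± 100.4 FPKM in control and 1829 ± 76.7 FPKM in swimming tumors, and Rpl3-ps1 807 ± 42.3 and 803 ± 67.8 FPKM (SD, n = 6 each). Rps12-ps3 averaged 1083 ± 115 and 1142 ± 69.6 FPKM, and Rps10-ps2 814 ± 105 and 769 ± 131 FPKM. In each of these 4, the difference of the means was below the larger SD.

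Of the 56 summed families, 1 was higher and 1 lower at an unadjusted p below 0.05, against 5.54% of the features in the table with families summed. The sum of Rpsa was lower with a difference of -0.14 (SE 0.06). The summed Rpl17 family differed by -0.08 (SE 0.11, limma unadjusted p = 0.490).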

How the data were processed

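RNA-Seq had been performed on 6 control and 6 swimming CT-26 tumors. The authors removed ribosomal RNA, mapped trimmed reads with HISAT2 2.0.5 and calculated FPKM with StringTie 1.3.3, and the deposited values are FPKM per gene. Read numbers were not analysed here, so counting error could not be estimated and the depth of a tumor is known only relative to the others. How the mapping placed reads that match several loci, the read length and the use of strand are not given in the sources used here, so genes of a family, and genes on opposite strands, cannot be told apart where they share sequence. The processing notes name hg38 and GRCm38, and coordinates are from GENCODE M21 (GRCm38), matched by identifier only.

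Groups and numbers were from the labels, and the tumors were from different mice. The pseudogenes and gene lists were chosen with earlier results of these data known. Each pseudogene was aligned locally with Biopython 1.88 (match 2, mismatch -3, gap opening -6, gap extension -2), in both orientations, to the protein-coding transcripts of its parent. Windows of 75 bases were searched in all GENCODE M21 transcripts. Family sums weight FPKM by length. A filter kept the 19018 features that reached 0.1 FPKM in 6 or more tumors, which were compared on log2(FPKM + 1) with limma 3.58.1 in R 4.3.3 (mean-variance trend, 2 groups, Benjamini-Hochberg over all features), and this was tested on simulated data. The 72 pseudogenes not tested had means up to 0.219 FPKM. Single pseudogenes were also compared by exact permutation over the 924 divisions into 6 and 6. Members named are the 10 of highest mean, the 12 with an unadjusted p below 0.05, the 5 of largest SD, the 5 with the largest share of windows in the parent (13 were tied at 100%, taken by mean FPKM) and the 3 highest without one. Values of some genes that this rule names are not reported here. Genes such as Rpl21-ps15 were named from the family tables after their values were seen. Python 3.11.15, pandas 2.3.3, scipy 1.17.1 and matplotlib 3.10.9 were used. Alternatives changed the pseudocount, filter, trend, scaling, block, window length and family weighting, or left out each tumor. The transcript-length weighting, the sums with other window-sharing features and the Rps27a-ps2 correlation were added after the values were seen.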

Additional observations from a re-analysis of the deposited data

Results flagged for a closer look

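Among 116 groups of 6 values tested for a single tumor apart from the rest by Dixon's ratio, 9 had one, where chance alone gives about 5.8 (1 in 20). Among pseudogenes, Rps13-ps1 and Rps13-ps2 stood apart in swimming 5, at 69.6 FPKM (nearest other swimming tumor 30.1) and 90.4 FPKM (nearest 33.8). Rps12-ps3 did so in swimming 6 at 1273 FPKM (nearest 1139), and Rpl30-ps8 in the same tumor at 54.0 FPKM (nearest 28.2).

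Among parents, Rps27a was low in swimming 4 at 164 FPKM (nearest 265), the tumor in which Rps27a-ps2 was at 421 FPKM. Rpl38 and Rps27 were high in swimming 6, at 1175 FPKM (nearest 835) and 1219.6 FPKM (nearest 839). Rpl36 and Rpl36a were high in control 5, at 2591 FPKM (nearest 2318) and 464 FPKM (nearest 377).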

How the results depend on the processing

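Of 361 single comparisons of 18 genes or sums under the alternatives, 293 kept direction and side of the threshold, 62 kept direction but lost it, 3 passed it and 3 reversed. The reversals were the Rps27a family sum: -0.20 with transcript-length weighting, -0.32 with plain addition and -0.22 with other window-sharing features added, against 0.14. Rps27a-ps2 alone was below p 0.05 in all alternatives. With a filter of 1 FPKM, which left 110 pseudogenes tested, 1 pseudogene was higher. Rpl7a-ps10 and Rps27-ps1, with means of 0.360 and 0.174 FPKM, did not pass that filter. The families lower numbered 2 with plain addition and 0 with trimmed mean scaling, and the ribosomal protein genes lower numbered 1 with the latter. With quantile normalization, r of Rps12-ps3 with Rps12 turned to -0.31 (permutation p = 0.311) and that of Rpl3-ps1 fell to 0.40 (permutation p = 0.192). The cause of the changes other than that with the filter was not tested. Windows of 150 bases were shared with the parent by 93 pseudogenes, against 176 with 75 bases, a longer window having fewer chances to match.

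Leaving out 1 tumor at a time gave 2 to 5 pseudogenes higher and 3 to 22 lower, the extremes of the latter without swimming 5 and without swimming 6. It gave 1 to 2 families higher and 0 to 2 lower, and 1 to 2 ribosomal protein genes higher and 1 to 4 lower. The correlation r ranged from -0.00118 to 0.18 for Rps12-ps3, from 0.17 to 0.68 for Rpl3-ps1 and from 0.45 to 0.68 for Rpl35a-ps3.

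The numbers 1 to 6 occur in both groups but do not pair the tumors: deviations of same-numbered tumors correlated at -0.32 to 0.01, and 0 of 6 pairs were above 0.1. With the replicate block, 2 pseudogenes were higher and 9 lower, 7 of the 12 called without it among them, and 0 families and 0 ribosomal protein genes were lower. No tumor correlated best with its own number (0 tumors).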

Other observations

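Features that share windows with a pseudogene but carry other symbols also differed between tumors. Of the 48 added to family sums, 19 reached a mean of 100 FPKM. Gm10260, which shares sequence with the Rps18 family, was listed at 0 in control 6 and swimming 5 and at 761 to 2960 FPKM in the other tumors. Gm26619, of the same family, was at 1398 and 1062 FPKM in those 2 tumors and at 886 FPKM in control 1, where Gm10260 was at 761 FPKM. It was at 27.1 FPKM in control 2 and listed at 0 in the other 8 tumors.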
